A study of Homo sapiens with 9 samples.

Results

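The comparison sets the 5-fluorouracil-resistant subline HCT-FU-c against its parental line HCT116, as seen in the small RNA libraries of a human colorectal cancer study. It takes 6 of the 9 libraries of the series, chosen by their labels as the 3 biological replicates of HCT-FU-c and the 3 of HCT116. HCT116 is an established colorectal carcinoma cell line. HCT-FU-c was derived from it by continuous culture in stepwise increasing 5-fluorouracil, and the remaining 3 libraries come from HCT-Oxa-c, derived in the same way under oxaliplatin. The sources differ on the medium, which is DMEM in the methods and an RPMI medium in the labels. Each drug has 1 subline here, so every p-value measures the spread between cultures of a single subline and not between independently selected sublines.

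The data are reads counted per mature miRNA in small RNA libraries made from total RNA. HCT116 replicates 1, 2 and 3 held 1423526, 1414341 and 856383 counts, and HCT-FU-c replicates 1, 2 and 3 held 1230774, 1487737 and 919675. Levels are given as CPM, reads scaled to a common library size by TMM, and a mean stands with its SD over n = 3 libraries. The replicate 3 libraries stand apart from the others in both lines, and they are the shallowest. Deviations from the line's mean were correlated across miRNAs between HCT-FU-c and HCT116 libraries. The correlations were 0.395 to 0.725 for the same replicate number, against -0.669 to 0.435 for different numbers. They set replicate 3 apart and do not separate replicates 1 and 2. HCT116 replicate 1 was at 0.395 with HCT-FU-c replicate 1 and at 0.435 with HCT-FU-c replicate 2. HCT116 replicate 2 was at 0.408 and 0.644 with the same HCT-FU-c libraries. Because every same-number correlation was positive, calls are given from fits with and without the replicate number as a block in the model. Medians of lists, clusters and chromosomes, the comparison of arms and part of the fold changes are given without it only.

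A miRNA is cut from a hairpin transcript, loaded into an Argonaute protein and guided to messenger RNAs mainly by its seed, the bases just after its first base. MiRNAs with the same seed form a family with overlapping targets, and hairpins that lie close together are often made from a single transcript. 5-Fluorouracil blocks thymidylate synthase, is built into RNA and DNA, and is broken down by the enzyme encoded by DPYD.

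The mature sequences of the miRNAs on which the results turn come from RefSeq (GRCh38.p14), which held a sequence for 328 of the 367 miRNAs tested and a hairpin for 364. They are written 5′ to 3′, and capitals mark the seed, bases 2 to 8. The first set holds the miRNAs with an adjusted p under 0.05 in every fit with the replicate block, together with miR-452-5p from the same host gene as miR-224-5p and the opposite arm of miR-301a-5p.
miR-203b-3p: uUGAACUGuuaagaaccacugga
miR-224-5p: uCAAGUCAcuagugguuccguuuag
miR-452-5p: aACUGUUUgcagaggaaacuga
miR-301a-5p: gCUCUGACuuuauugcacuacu
miR-301a-3p: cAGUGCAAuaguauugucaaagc
None of these 5 shares a seed with another of them.

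The second set pairs a called miRNA with a family member of the same seed that the block fit of all libraries did not call, for the miR-30, miR-17 and miR-181 families.
miR-30a-5p: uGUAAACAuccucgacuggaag
miR-30c-5p: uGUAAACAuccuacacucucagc
miR-20a-5p: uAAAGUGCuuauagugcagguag
miR-17-5p: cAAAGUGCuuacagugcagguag
miR-181b-5p: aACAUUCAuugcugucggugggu
miR-181a-5p: aACAUUCAacgcugucggugagu
The last set holds the called members of the list tied to thymidylate synthase or DPYD, together with miR-34a-5p, which rose with no overlap between the lines, and no pair of them has a seed in common.
miR-197-3p: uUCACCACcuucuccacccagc
miR-203a-3p: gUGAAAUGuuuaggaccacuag
miR-218-5p: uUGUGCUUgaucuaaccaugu
miR-34a-5p: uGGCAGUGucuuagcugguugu

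None of the most abundant miRNAs was called in edgeR with or without the block, and the calls lay at lower levels. A missing call does not show that levels were alike. Without the block the SE of the log2 fold change was 0.66 for let-7f-5p and 0.94 for miR-10a-5p. The most abundant, miR-21-5p, was lower in every HCT-FU-c library than in any HCT116 library. The miRNAs called with the replicate block had means of 47.8 to 3169 CPM over the 6 libraries. With the replicate block, miR-301a-5p, miR-34a-5p, miR-197-3p, miR-20a-5p, miR-30b-5p and miR-335-3p rose, and 14 miRNAs fell, led by miR-203b-3p, miR-30a-5p, miR-224-5p and miR-218-5p. The edgeR quasi-likelihood F test without a block called 0 of 367 miRNAs (0%), while 6 were higher (1.63%) and 9 lower (2.45%) at an unadjusted p under 0.05, and DESeq2 called 4. With the replicate number as a block the same test called 20, of which 6 were higher (1.63%) and 14 lower (3.81%). In each of the 20, which were chosen by that fit, the HCT-FU-c library lay on the called side in all 3 pairs of libraries with the same number, and 153 of the 367 tested miRNAs had all 3 pairs on the same side. As the libraries are of bulk cultures, fewer cells that make a miRNA and less of it per cell cannot be told apart.

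Scaling by total counts in place of TMM moved the median log2 fold change of all tested miRNAs from 0.02 to 0.19, and the calls with the block to 8 higher and 2 lower. All 6 higher calls of the 20 were kept there, and of the 14 lower calls 12 were lost, all but miR-203b-3p and miR-224-5p. Relative to that shift, a log2 fold change under total counts is read against 0.19 and not against 0. Leaving out a library also changed the number called with the block. It was 8 without HCT-FU-c replicate 1, 12 without HCT-FU-c replicate 2, 10 without HCT116 replicate 1 and 9 without HCT116 replicate 2. It was 14 without HCT116 replicate 3 and 27 without HCT-FU-c replicate 3. Without both replicate 3 libraries and that of HCT-Oxa-c, 13 miRNAs were called without a block, 4 higher and 9 lower, and 9 of them belong to the 20. Over all alternatives the adjusted p of each of the 20 reached 1.00, a value of the fits without a block.

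By the levels alone, 16 miRNAs had all 3 HCT-FU-c libraries above all 3 HCT116 libraries (4.36%) and 16 had them all below (4.36%). Of the 20 called with the block, 10 were among these, 4 above and 6 below. By sign, 190 of 367 (51.8%) were higher in HCT-FU-c, which became 245 under total counts and 171 under RLE size factors. The log2 fold change lay within 1 of 0 for 338 miRNAs (92.1%), below -1 for 19 and above 1 for 10. No miRNA was at 0 in all 3 libraries of a line with 10 or more counts in all 3 of the other.

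**Figure D1:**
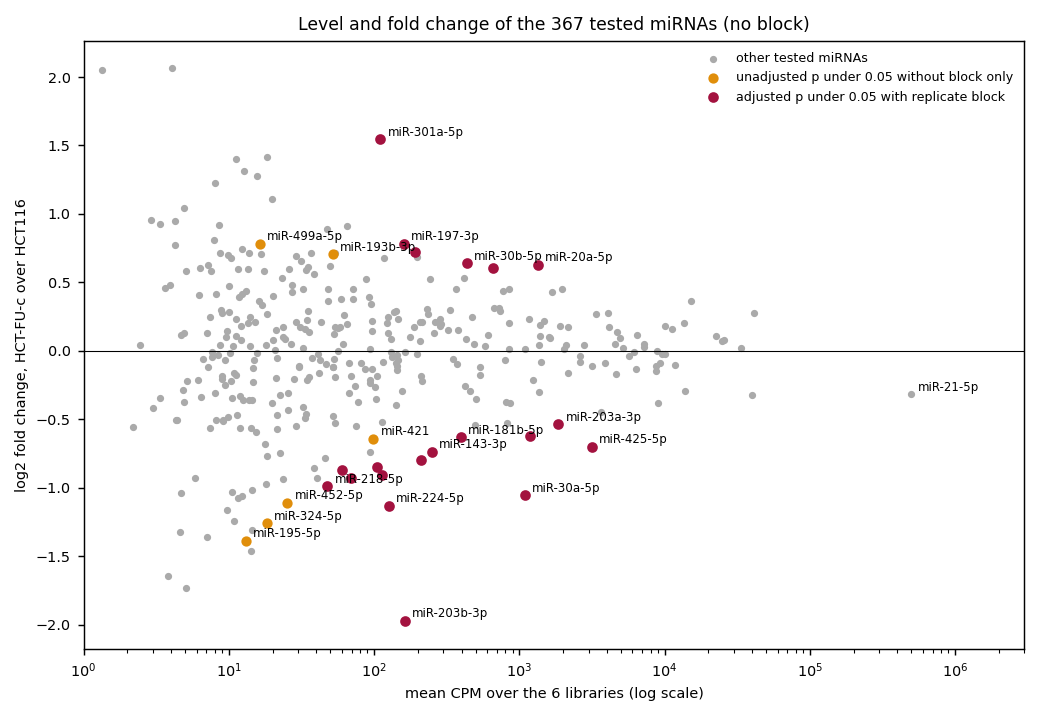
Each point is 1 of the 367 tested miRNAs, with its mean CPM over the 6 libraries on a log axis and its log2 fold change of HCT-FU-c over HCT116 from the edgeR fit without a block, and coloured points are those called with the block or with an unadjusted p under 0.05 without it. The abundant miRNAs lie near 0, miR-21-5p at -0.32, and among the points beyond 1 in either direction are miR-203b-3p at -1.97, miR-301a-5p at 1.55 and miR-30a-5p at -1.05.

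The 20 miRNAs called with the block had a median level of 201 CPM, against 52.0 CPM for all tested. Leaving out miR-218-5p and miR-181b-5p, which each have hairpins on different chromosomes, they lie on 11 chromosomes. The log2 fold change of the 20 lay beyond 1 in either direction for 6 with the block and for 4 without it. The median GC content of the 17 with a sequence was 47.6%, against 45.5% for all. The adjusted p stayed under 0.05 in each of the 6 block fits that leave out 1 library for 3 of them, miR-203b-3p, miR-301a-5p and miR-224-5p.

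**Figure D2:**
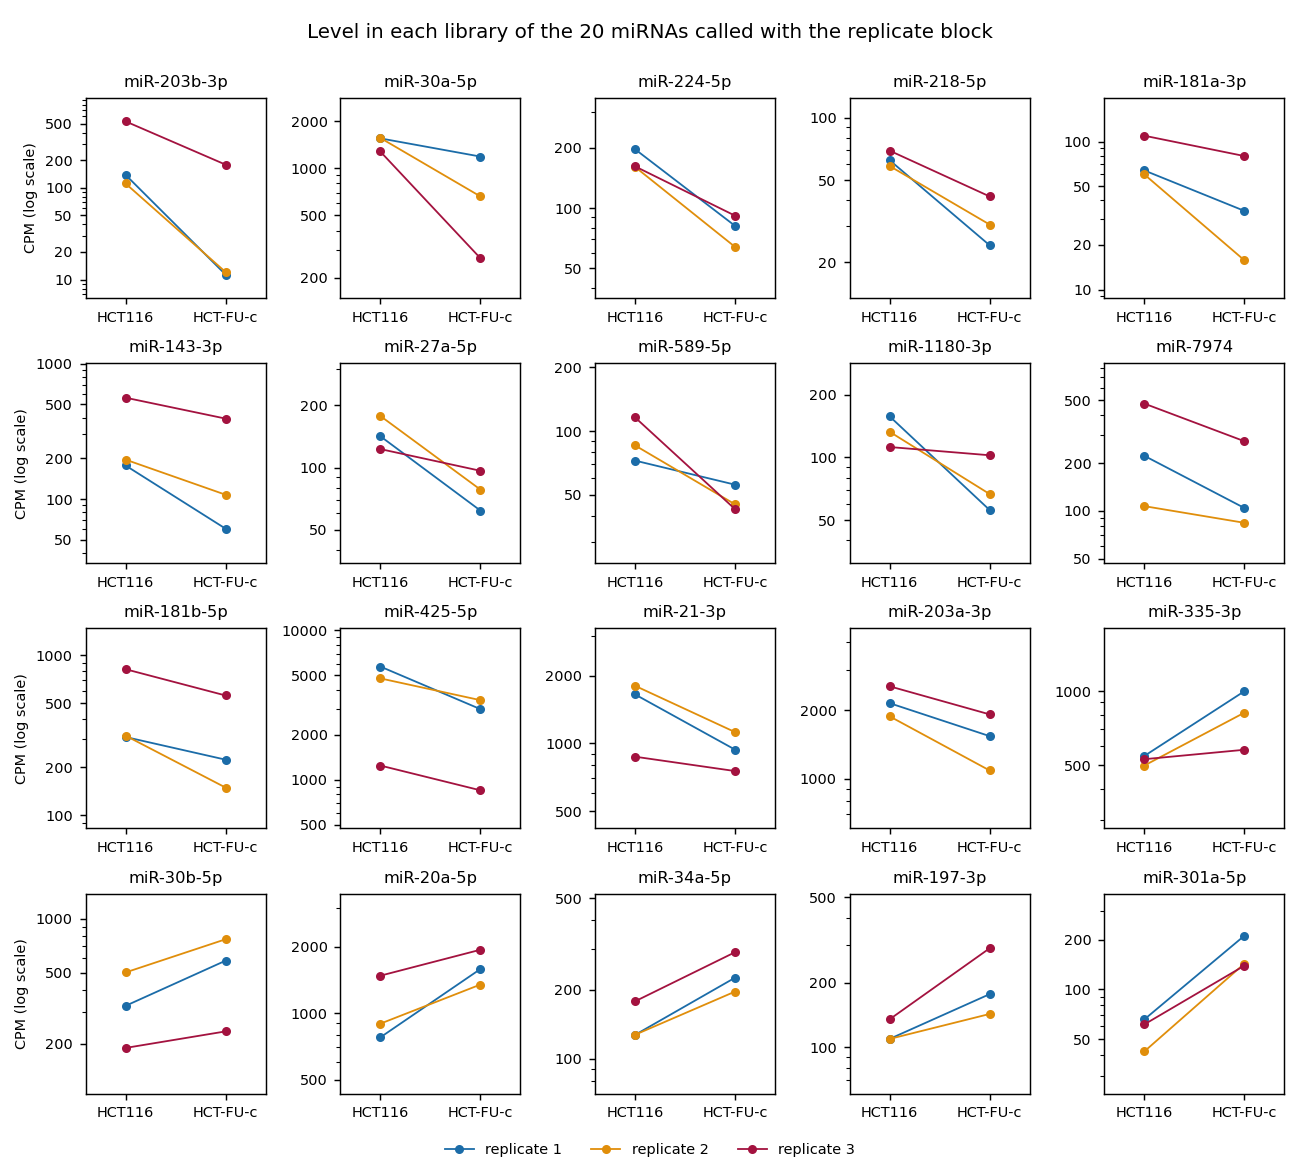
Each panel shows the CPM of 1 of the 20 miRNAs called with the replicate block, on a log axis, in the 3 HCT116 and the 3 HCT-FU-c libraries, with a line joining libraries of the same replicate number. All 3 lines run in the same direction in every panel, which the choice by the block fit favours, and the replicate 3 libraries often lie apart, as for miR-203b-3p at 529 and 179 CPM.

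Among the miRNAs that rose, miR-301a-5p had the smallest adjusted p. It is the less studied arm of a hairpin in an intron of SKA2, a gene of the kinetochore, at chr17:59151136-59151221 on the minus strand (GRCh38). It measured 65.8, 42.1 and 61.4 CPM in HCT116 replicates 1, 2 and 3 and 212, 143 and 139 CPM in HCT-FU-c. Every HCT-FU-c library lay above every HCT116 library. The means were 56.5 ± 12.6 and 165 ± 40.6 CPM (SD, n = 3). On the log2 scale the fold change was 1.55 (SE 0.28) without the block (edgeR adjusted p 0.129, unadjusted 0.000352) and 1.55 (SE 0.23) with it (adjusted p 0.000136). The highest adjusted p over the block fits was 0.00513, and DESeq2 without a block gave 0.000526.

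The other arm, miR-301a-3p, is the better known product of this hairpin. It measured 25.1, 30.7 and 167 CPM in HCT116 and 36.3, 18.9 and 125 CPM in HCT-FU-c, so replicate 3 was high in both lines and the groups overlapped. The log2 fold change was -0.30 (SE 0.92), and it turned to 1.08 without HCT116 replicate 3, to 0.15 without HCT-FU-c replicate 2 and to -1.43 without HCT-FU-c replicate 3. The neighbouring miR-454-3p, from an intron of the same gene at chr17:59137758-59137872, had means of 563 ± 316 and 442 ± 328 CPM, with overlapping groups.

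miR-34a-5p, which restrains the cell cycle, is cut from an exon of MIR34AHG at chr1:9151668-9151777 on the minus strand. Its level was 127, 127 and 178 CPM in HCT116 and 225, 196 and 291 CPM in HCT-FU-c. All HCT-FU-c libraries lay above all HCT116 libraries, and replicate 3 was the highest in each line. Its fold change on the log2 scale was 0.72 in both edgeR fits, with an SE of 0.26 and an adjusted p of 0.901 without the block and an SE of 0.18 and an adjusted p of 0.023 with it. Its call with the block was lost without HCT116 replicate 1 (adjusted p 0.0652), 2 (0.17) or 3 (0.0668) and without HCT-FU-c replicate 1 (0.183) or 3 (0.0961), and 0.183 was the highest over the block fits.

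miR-197-3p, which the literature ties to thymidylate synthase, lies in an exon of GNAI3 at chr1:109598893-109598967. It measured 109, 109 and 135 CPM in HCT116 and 177, 143 and 289 CPM in HCT-FU-c. The groups did not overlap, and HCT-FU-c replicate 3 was the highest library. HCT-FU-c over HCT116 gave a log2 fold change of 0.78 (SE 0.30), edgeR adjusted p 0.913, without the block and 0.73 (SE 0.21), adjusted p 0.0359, with it. The call was lost without HCT116 replicate 1 (0.0652), 2 (0.17) or 3 (0.205) and without HCT-FU-c replicate 1 (0.179) or 3 (0.323, the highest over the block fits). Without HCT-FU-c replicate 3 the log2 fold change was 0.40 without and 0.46 with the block. The call was also lost with RLE size factors (0.0677), with TMM after removing miR-21-5p (0.0703) and with the 6 libraries alone (0.0562).

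miR-20a-5p is a member of the miR-17-92 polycistron of proliferating cells, at chr13:91351065-91351135 within MIR17HG. Its level was 776, 896 and 1480 CPM in HCT116 and 1586, 1349 and 1941 CPM in HCT-FU-c. HCT116 replicate 3 lay above HCT-FU-c replicate 2, so the groups overlapped, although each HCT-FU-c library was above the HCT116 library of its number. The fitted log2 fold change was 0.63 (SE 0.30), edgeR adjusted p 0.913, without the block and 0.66 (SE 0.15), adjusted p 0.0173, with it. Without HCT116 replicate 1 or 2 or HCT-FU-c replicate 1, the block fit gave adjusted p-values of 0.0978, 0.084 and 0.073, and the highest over the block fits was 0.182. The fold change without the block was 0.96 in log2 without HCT116 replicate 3. miR-17-5p, with the same seed, had means of 713 ± 257 and 978 ± 101 CPM and a log2 fold change of 0.46 (SE 0.28), with an adjusted p of 0.073 with the block. For miR-17-5p it was 0.29 without HCT116 replicate 1, 0.30 without HCT116 replicate 2 and 0.79 without HCT116 replicate 3. The adjusted p of miR-17-5p with the block was 0.0405 under total counts, 0.0442 with at least 10 counts in every library and 0.033 without HCT116 replicate 3.

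The remaining higher miRNAs were miR-335-3p and miR-30b-5p. miR-335-3p comes from an intron of the imprinted gene MEST at chr7:130496111-130496204. It measured 545, 498 and 529 CPM in HCT116 and 998, 817 and 578 CPM in HCT-FU-c, with no overlap and the smallest difference in replicate 3. In log2 the fold change was 0.61 (SE 0.26), edgeR adjusted p 0.913, and 0.58 (SE 0.16), adjusted p 0.0381, with the block. The call was lost without replicate 1 or 2 of HCT116 (0.224 and 0.299) or of HCT-FU-c (0.276 and 0.0959), with 0.396 the highest over the block fits, and the value without the block was 0.38 without HCT-FU-c replicate 1. RLE size factors (0.0627), TMM after removing miR-21-5p (0.0616) and the 6 libraries alone (0.0609) also ended the call of miR-335-3p. The opposite arm, miR-335-5p, had means of 575 ± 334 and 589 ± 404 CPM. miR-30b-5p measured 326, 501 and 190 CPM in HCT116 and 582, 767 and 235 CPM in HCT-FU-c. Replicate 3 was low in both lines and the groups overlapped. It had a log2 fold change of 0.64 (SE 0.50), edgeR adjusted p 0.997, and of 0.60 (SE 0.17), adjusted p 0.0389, with the block. Of the block fits that leave out 1 library, the call was kept in that without HCT-FU-c replicate 3. Without the block it was 0.97 without HCT116 replicate 2, 0.36 without HCT116 replicate 3 and 0.27 without HCT-FU-c replicate 2. The adjusted p with the block and without HCT116 replicate 1, 2 or 3 was 0.216, 0.17 and 0.0785, without HCT-FU-c replicate 1 or 2 it was 0.19 and 0.155, and the highest over the block fits was 0.337. With RLE size factors it was 0.0677, with TMM after removing miR-21-5p 0.0516 and with the 6 libraries alone 0.0546.

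Among the miRNAs that fell, miR-203b-3p changed most. Its hairpin lies at chr14:104117418-104117503 on the minus strand, inside the stretch that encodes MIR203A on the plus strand, chr14:104117405-104117514. The hairpins are cut from opposite strands of the same stretch, and the mature sequences of miR-203b-3p and miR-203a-3p printed above differ. The use of strand in counting is not given in the sources used here. Whether reads of MIR203A were counted for MIR203B, or the reverse, is therefore uncertain. miR-203b-3p measured 138, 111 and 529 CPM in HCT116 and 11.3, 12.1 and 179 CPM in HCT-FU-c. Replicate 3 was the highest library of each line, and the groups overlapped because HCT-FU-c replicate 3 lay above HCT116 replicates 1 and 2. Its log2 fold change was -1.97 (SE 1.18), edgeR adjusted p 0.968, without the block and -2.52 (SE 0.29), adjusted p 3.85e-06, with it. The highest adjusted p over the block fits was 0.000136. Single libraries moved the value without the block to -0.93 without HCT116 replicate 3 and to -4.47 without HCT-FU-c replicate 3, and with the block it lay between -2.23 and -3.41. Without replicate 3 in any line, and without a block, it was -3.45 with an adjusted p of 3.02e-06.

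miR-203a-3p, a miRNA of differentiating epithelium, measured 2150, 1881 and 2551 CPM in HCT116 and 1539, 1086 and 1919 CPM in HCT-FU-c. HCT-FU-c replicate 3 lay just above HCT116 replicate 2, the only overlap. On the log2 scale the fold change was -0.53 (SE 0.27), edgeR adjusted p 0.913, without the block and -0.56 (SE 0.14), adjusted p 0.023, with it. The call was lost without HCT116 replicate 2 (0.12) or 3 (0.0668) or HCT-FU-c replicate 1 (0.0557) or 2 (0.124), and under total counts (0.112), and the highest over the block fits was 0.136. The value without the block was -0.34 without HCT-FU-c replicate 2.

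miR-224-5p and miR-452-5p lie close together within GABRE, which encodes a GABA receptor subunit, at chrX:151958578-151958658 and chrX:151959628-151959712. miR-224-5p measured 197, 161 and 162 CPM in HCT116 and 81.6, 64.1 and 91.7 CPM in HCT-FU-c. Every HCT-FU-c library was below every HCT116 library. The means were 173 ± 20.6 and 79.1 ± 14.0 CPM (SD, n = 3). edgeR put the log2 fold change at -1.13 (SE 0.26), adjusted p 0.312 and unadjusted p 0.0017, without the block and -1.15 (SE 0.20), adjusted p 0.000809, with it. Total counts with the block gave the highest adjusted p of the block fits, 0.0144, and DESeq2 without a block gave 0.00325. miR-452-5p measured 40.7, 37.1 and 25.4 CPM in HCT116 and 11.3, 13.7 and 23.8 CPM in HCT-FU-c, again without overlap. Its fold change on the log2 scale was -1.11 (SE 0.37) with an edgeR adjusted p of 0.708, and -1.17 (SE 0.37) with an adjusted p of 0.0724 with the block. Without replicate 3 and without a block it was -1.67, adjusted p 0.0204. The adjusted p of miR-452-5p with the block was 0.0486 in DESeq2, 0.0451 with at least 10 counts in every library and 0.00619 without HCT-FU-c replicate 3.

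miR-30a-5p, of the miR-30 family, comes from an intron of LINC00472 at chr6:71403551-71403621 on the minus strand. It measured 1554, 1565 and 1282 CPM in HCT116 and 1189, 662 and 267 CPM in HCT-FU-c. The HCT-FU-c libraries were all below those of HCT116 but spread widely among themselves, with replicate 3 the lowest. HCT-FU-c over HCT116 gave a log2 fold change of -1.05 (SE 0.50), edgeR adjusted p 0.913, without the block and -1.20 (SE 0.28), adjusted p 0.0173, with it. Leaving out HCT116 replicate 3 gave 0.113 with the block, total counts gave 0.0526, and DESeq2 with the block gave the highest adjusted p of the block fits, 0.19. Leaving out HCT-FU-c replicate 1 moved the value without the block to -1.69, and leaving out HCT-FU-c replicate 3 moved that with the block to -0.76. In HCT-Oxa-c the same miRNA had a mean of 38.0 ± 15.6 CPM.

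miR-218-5p is made from a pair of genes within the introns of SLIT2 and SLIT3, at chr4:20528275-20528384 and chr5:168768146-168768255. It measured 62.4, 58.6 and 69.4 CPM in HCT116 and 24.2, 30.5 and 41.7 CPM in HCT-FU-c, with no overlap. The fitted log2 fold change was -0.99 (SE 0.30), edgeR adjusted p 0.705, without the block and -1.03 (SE 0.27), adjusted p 0.023, with it. For miR-218-5p the call was lost without HCT116 replicate 1 (0.0978) or 3 (0.094) or HCT-FU-c replicate 1 (0.118) or 2 (0.0959), under total counts (0.0688) and with the 6 libraries alone (0.0504), and the highest over the block fits was 0.182.

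miR-27a-5p, the minor arm of a hairpin at chr19:13836440-13836517 on the minus strand, measured 142, 178 and 123 CPM in HCT116 and 61.9, 78.3 and 96.5 CPM in HCT-FU-c. The groups did not overlap. In log2 the fold change was -0.91 (SE 0.26), edgeR adjusted p 0.616, without the block and -0.92 (SE 0.22), adjusted p 0.0173, with it. The block fit lost it without HCT116 replicate 2 (0.084) or HCT-FU-c replicate 1 (0.118) or 2 (0.0864), and under total counts (0.0552), and the highest over the block fits was 0.169. DESeq2 without a block gave 0.0438. The major arm, miR-27a-3p, had means of 3982 ± 837 and 3745 ± 453 CPM and a log2 fold change of -0.09 (SE 0.22), which was 0.10 under total counts, below the shift of 0.19. It was -0.20 without HCT116 replicate 3 and 0.042 without HCT116 replicate 2.

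miR-589-5p and miR-1180-3p, both from introns, were lower in every HCT-FU-c library than in any HCT116 library. miR-589-5p lies in FBXL18 at chr7:5495819-5495917 and measured 72.6, 85.7 and 116.2 CPM in HCT116 and 55.9, 45.2 and 42.9 CPM in HCT-FU-c. Its log2 fold change was -0.92 (SE 0.26), edgeR adjusted p 0.616, and -0.89 (SE 0.24), adjusted p 0.0332, with the block, and DESeq2 without a block gave 0.0438. Its call was lost without HCT116 replicate 2 (0.0714) or 3 (0.218, the highest over the block fits) or HCT-FU-c replicate 2 (0.106) or 3 (0.0912), under total counts (0.104) and with the 6 libraries alone (0.0546). miR-1180-3p lies in B9D1 at chr17:19344506-19344574 and measured 157, 133 and 112 CPM in HCT116 and 55.9, 66.7 and 102 CPM in HCT-FU-c. The replicate 3 libraries of the lines lay closest together. On the log2 scale the fold change was -0.85 (SE 0.28), edgeR adjusted p 0.708, and -0.88 (SE 0.23), adjusted p 0.0266, with the block. Without HCT116 replicate 1 or 2 the block gave 0.171 and 0.0689, without HCT-FU-c replicate 1 or 2 it gave 0.235 and 0.0916, under total counts 0.09 and with the 6 libraries alone 0.0504, and the highest over the block fits was 0.402.

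The other called miRNAs that fell had overlapping groups. miR-143-3p, in an exon of CARMN at chr5:149428918-149429023, measured 177, 196 and 561 CPM in HCT116 and 60.4, 108 and 393 CPM in HCT-FU-c. Replicate 3 was the highest library of each line. edgeR put the log2 fold change at -0.74 (SE 0.81), adjusted p 0.997, and -0.96 (SE 0.21), adjusted p 0.0113, with the block, which became 0.0598 without HCT116 replicate 1, 0.0501 under total counts and 0.113 at the highest over the block fits. Without the block it was -0.0015 without HCT116 replicate 3, -0.33 without HCT-FU-c replicate 1, -0.44 without HCT-FU-c replicate 2 and -1.90 without HCT-FU-c replicate 3.

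miR-181b-5p, of a family known from lymphocyte signalling, is made from genes in introns of MIR181A1HG and MIR181A2HG, at chr1:198858873-198858982 and chr9:124693710-124693798. It measured 309, 315 and 819 CPM in HCT116 and 223, 149 and 561 CPM in HCT-FU-c, with replicate 3 the highest in each line. Its fold change on the log2 scale was -0.63 (SE 0.60), edgeR adjusted p 0.997, and -0.69 (SE 0.17), adjusted p 0.0173, with the block. The call was lost without HCT116 replicate 2 (0.084) or 3 (0.0683) or HCT-FU-c replicate 2 (0.132, the highest over the block fits), and under total counts (0.0701). Without the block, miR-181b-5p was at -0.0083 without HCT116 replicate 3, at -0.28 without HCT-FU-c replicate 2 and at -1.40 without HCT-FU-c replicate 3. miR-181a-3p, from the neighbouring hairpin at chr1:198859044-198859153, measured 63.8, 60.0 and 110 CPM in HCT116 and 34.0, 15.8 and 79.8 CPM in HCT-FU-c. HCT-FU-c replicate 3 lay above HCT116 replicates 1 and 2. HCT-FU-c over HCT116 gave a log2 fold change of -0.87 (SE 0.54), edgeR adjusted p 0.968, and -1.01 (SE 0.29), adjusted p 0.0431, with the block. Leaving out HCT116 replicate 1, 2 or 3 gave 0.0978, 0.084 and 0.145, and leaving out HCT-FU-c replicate 2 gave 0.303, the highest over the block fits, with a log2 fold change of -0.56. The call of miR-181a-3p was also lost under total counts (0.0774), with TMM after removing miR-21-5p (0.0616), with at least 10 counts in every library (0.0561) and with the 6 libraries alone (0.0504). Without the block, miR-181a-3p was at -0.55 without HCT116 replicate 3, at -0.44 without HCT-FU-c replicate 2 and at -1.68 without HCT-FU-c replicate 3.

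miR-425-5p, from an intron of DALRD3 at chr3:49020148-49020234, measured 5737, 4779 and 1249 CPM in HCT116 and 2977, 3417 and 853 CPM in HCT-FU-c. Replicate 3 was the lowest library of each line. The fitted log2 fold change was -0.70 (SE 0.66), edgeR adjusted p 0.997, and -0.67 (SE 0.16), adjusted p 0.0173, with the block. Without HCT116 replicate 1 or HCT-FU-c replicate 1 the block gave 0.0978 and 0.0559, under total counts it gave 0.104, and the highest over the block fits was 0.181. Without the block, miR-425-5p was at -0.33 without HCT116 replicate 1, at -1.12 without HCT116 replicate 3 and at -0.35 without HCT-FU-c replicate 3.

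miR-21-3p is the minor arm of MIR21, in an exon of VMP1 at chr17:59841266-59841337. It measured 1653, 1806 and 873 CPM in HCT116 and 939, 1124 and 754 CPM in HCT-FU-c, and HCT116 replicate 3 lay below HCT-FU-c replicates 1 and 2. In log2 the fold change was -0.62 (SE 0.34), edgeR adjusted p 0.968, and -0.57 (SE 0.15), adjusted p 0.0266, with the block. The call was lost without replicate 1 or 2 of HCT116 (0.0855 and 0.138) or of HCT-FU-c (0.199 and 0.0752), and under total counts (0.158), with 0.267 the highest over the block fits. miR-7974, from an intron of ZNF653 at chr19:11495544-11495622, measured 223, 107 and 475 CPM in HCT116 and 104, 84.0 and 275 CPM in HCT-FU-c. Replicate 3 was again the highest library of each line. Its log2 fold change was -0.80 (SE 0.63), edgeR adjusted p 0.997, and -0.76 (SE 0.20), adjusted p 0.023, with the block. Leaving out HCT116 replicate 1 or 3 or HCT-FU-c replicate 1 gave 0.0978, 0.182 and 0.149, total counts gave 0.104, and the highest over the block fits was 0.197. Without the block, miR-7974 was at -1.21 without HCT116 replicate 2, at -0.10 without HCT116 replicate 3, at -0.48 without HCT-FU-c replicate 2 and at -1.54 without HCT-FU-c replicate 3.

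**Figure D3:**
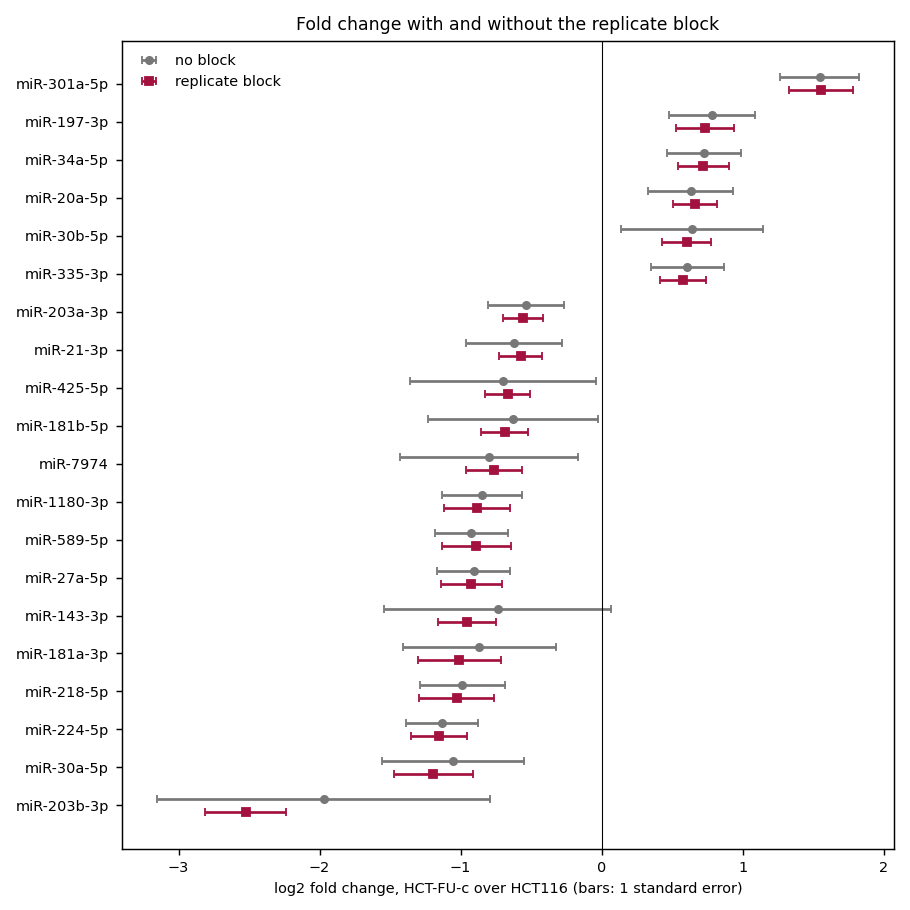
The log2 fold change of HCT-FU-c over HCT116 of the 20 miRNAs called with the block is plotted with 1 standard error, from the edgeR fits without (grey) and with (red) the replicate number as a block. The values of both fits have the same sign for each miRNA, with -1.13 and -1.15 for miR-224-5p and -1.97 and -2.52 for miR-203b-3p, and the error bars are shorter with the block, as for miR-143-3p at 0.81 and 0.21.

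Across all 367 miRNAs the median standard error of the log2 fold change was 0.46 without the block and 0.29 with it. The biological coefficient of variation went from 0.458 to 0.174. Of the 15 miRNAs with an unadjusted p under 0.05 without the block, 9 were also called with it. The rest were miR-452-5p, described with miR-224-5p, and 5 more. miR-324-5p measured 15.6, 25.7 and 36.1 CPM in HCT116 and 10.6, 10.5 and 10.7 CPM in HCT-FU-c, with no overlap and a log2 fold change of -1.26 (SE 0.41). miR-421 had a log2 fold change of -0.64 (SE 0.26) and miR-195-5p, of the miR-15/16 seed family, of -1.39 (SE 0.60). miR-193b-3p was at 0.71 (SE 0.29) and miR-499a-5p, a muscle miRNA of low level here, at 0.78 (SE 0.34). Their edgeR adjusted p-values with the block were 0.0901 for miR-324-5p, 0.108 for miR-421 and miR-195-5p, 0.178 for miR-193b-3p and 0.311 for miR-499a-5p. Without HCT-FU-c replicate 3, miR-193b-3p was at 0.47 without and 0.37 with the block. miR-421 was at -0.42 without HCT116 replicate 3, and miR-195-5p had an adjusted p of 0.0486 with the block when replicate 3 was left out in all lines.

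The abundant end of the profile was dominated by miR-21-5p, an oncogenic miRNA of many carcinomas. It took 55.5, 57.1 and 46.7% of the counts in HCT116 replicates 1, 2 and 3 and 49.2, 45.6 and 46.4% in HCT-FU-c. Its log2 fold change of -0.32 (SE 0.17) had an unadjusted p of 0.09 and, with the block, an edgeR adjusted p of 0.394, although each HCT-FU-c library was below each HCT116 library in CPM, and it was -0.18 without HCT-FU-c replicate 2. The 10 most abundant miRNAs of each library, which were not the same in all, held 74.1, 75.6 and 76.6% of the counts in HCT116 and 72.8, 70.0 and 75.2% in HCT-FU-c.

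By mean CPM over the 6 libraries, miR-7-5p came next after miR-21-5p, although miR-100-5p was higher in HCT116. miR-7-5p stood at 37329 ± 5336 CPM in HCT116 and 45254 ± 2311 CPM in HCT-FU-c. Its log2 fold change was 0.28, or 0.13 without HCT116 replicate 2. miR-100-5p stood at 44504 ± 7951 and 35680 ± 13038 CPM, with -0.32, and miR-92a-3p at 13392 ± 2342 and 17209 ± 5036 CPM, with 0.36. miR-100-5p was at -0.16 without HCT116 replicate 3, at -0.050 without HCT-FU-c replicate 2 and at -0.61 without HCT-FU-c replicate 3. miR-92a-3p was at 0.19 without HCT116 replicate 2 and at 0.073 without HCT-FU-c replicate 1. let-7f-5p and miR-10a-5p varied widely between libraries of a line. In HCT116 their SD was near their mean, at 33353 ± 30293 and 21714 ± 21168 CPM. In HCT-FU-c they stood at 33780.5 ± 18952.5 and 23470 ± 19636 CPM. let-7a-5p (24852 ± 13908 and 26296 ± 8484 CPM), miR-222-3p (24091 ± 8290 and 25303 ± 8942 CPM), miR-30d-5p (15282 ± 5530 and 12459 ± 4780 CPM) and let-7g-5p (12677 ± 1197 and 14634 ± 2721 CPM) completed the 10 with the highest mean CPM over the 6 libraries. None of these 10 was called with or without the block in edgeR, where 20 and 0 miRNAs were called and 15 had an unadjusted p under 0.05 without it, none of them among the 10.

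Lists of miRNAs grouped by role show how the differences spread. Each list is described by how many of its tested members were higher or lower in HCT-FU-c and by the median log2 fold change without the block, beside 190 higher, 177 lower and a median of 0.02 over all tested. Counts of members under total counts stand beside 245 higher and a median of 0.19 over all tested, and those under RLE size factors beside 171 higher. Calls among the members stand beside 0% of all tested without the block and 5.45% with it (1.63% higher and 3.81% lower). The list of miRNAs tied to thymidylate synthase or DPYD in the literature cited by the study has 7 members, all tested. Of these, 2 were higher and 5 lower, with a median of -0.09, which became 4 higher under total counts. With the block miR-197-3p rose, and miR-203a-3p and miR-218-5p fell. miR-27b-3p had means of 3035 ± 163 and 3662 ± 222.3 CPM, with all HCT-FU-c libraries above all HCT116 libraries and a log2 fold change of 0.27 that did not pass (edgeR adjusted p 0.431 with the block). miR-200c-3p, at 10214 ± 1120 and 10044 ± 1128 CPM, and miR-494-3p, at 2.54 ± 2.39 and 1.84 ± 1.64 CPM, had overlapping groups.

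The list tied to 5-fluorouracil response through PI3K/AKT or Wnt signalling had 7 of 10 members tested, 4 higher and 3 lower, with a median of 0.05. Under total counts 6 were higher and under RLE size factors 3. None of these 7 was called by edgeR, beside 20 of all 367 with the block and 0 without it, and none had an unadjusted p under 0.05 without the block. The study's introduction also names miR-224 and miR-200c among the miRNAs of PI3K/AKT signalling. They were left out of this list and are described with other lists, and of the pair miR-224-5p fell with the block. The most abundant was let-7a-5p, followed by miR-182-5p at 9599 ± 8120 and 9028 ± 7309 CPM and miR-125b-5p at 4483 ± 2124 and 4638 ± 1925 CPM. miR-320a-3p stood at 1562 ± 512 and 1665 ± 806 CPM, miR-135b-5p at 1545 ± 254 and 1660 ± 46.3 CPM and miR-149-5p at 132 ± 27.6 and 131 ± 38.8 CPM. miR-181a-5p, at 980 ± 362.6 and 751 ± 372 CPM, had a log2 fold change of -0.38 (SE 0.43) and an adjusted p of 0.0901 with the block. Without the block, miR-181a-5p was at -0.039 without HCT116 replicate 3, at -0.13 without HCT-FU-c replicate 2 and at -0.89 without HCT-FU-c replicate 3. Its adjusted p with the block was 0.0413 without HCT-FU-c replicate 3 and 0.0486 in DESeq2. In each of these 7 the groups overlapped.

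Among polycistrons that promote proliferation, miR-17-92 had 9 of 10 tested members higher and a median of 0.38, and 9 were higher under total counts and 8 under RLE size factors. With the block only miR-20a-5p passed. miR-92a-3p was its most abundant member, and miR-19b-3p had means of 343 ± 151 and 495 ± 52.7 CPM and a log2 fold change of 0.53 (SE 0.32), with an adjusted p of 0.0901 with the block in edgeR. For miR-19b-3p the value was 0.27 without HCT116 replicate 1 and 0.93 without HCT116 replicate 3, and the adjusted p with the block was 0.0224 without HCT116 replicate 3 and 0.0137 without HCT-FU-c replicate 3. Leaving out replicate 3 in all lines, without a block, gave it 0.96 with an adjusted p of 0.0338. The related miR-106b/25 polycistron, in an intron of MCM7, had 5 of 6 members higher with a median of 0.13, and 4 under RLE size factors, and none was called in either edgeR fit. miR-25-3p stood at 7161 ± 2042 and 7322 ± 2892 CPM and miR-93-5p at 4484 ± 2035 and 4938 ± 2456 CPM. Of the polycistron on the X chromosome with miR-106a-5p and miR-363-3p, the 4 listed members had too few reads to be tested. miR-19b-3p and miR-92a-3p are also encoded there, by MIR19B2 and MIR92A2, so their reads can come from either place.

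In the families tied to a differentiated or resting state, no member was called in either edgeR fit, beside 20 of all 367 with the block and 0 without it, although miR-195-5p of the miR-15/16 seed family had an unadjusted p under 0.05 without the block. The miR-200 family, guardians of the epithelial state, had 4 of 8 tested members higher and 4 lower with a median of -0.0048, and 7 were higher under total counts and 3 under RLE size factors. miR-200b-3p stood at 9053 ± 1691 and 8409 ± 690 CPM, and miR-429 at 2011 ± 218 and 2031 ± 330 CPM. Of the 9 let-7 guide strands, 8 were higher and 1 lower, with a median of 0.21, and total counts gave 9 higher. let-7i-5p stood at 9698 ± 577 and 9534 ± 621 CPM and miR-98-5p at 3878 ± 2639 and 4375 ± 1958 CPM. The miR-29 family had 3 of 3 higher under every scaling tried, with a median of 0.18, and miR-29a-3p at 9384 ± 4104 and 10629 ± 4143 CPM. The miR-15/16 seed family had 2 of 5 higher with a median of -0.11, 4 under total counts and 1 under RLE size factors, and miR-16-5p at 6599 ± 1695 and 6017 ± 1901 CPM.

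In the miR-30 family, 3 of 5 guide strands were higher and 2 lower under every scaling tried, with miR-30b-5p called higher and miR-30a-5p called lower with the block. miR-30c-5p, with the seed of miR-30a-5p, had means of 1659 ± 276 and 2264 ± 459 CPM and a log2 fold change of 0.45 (SE 0.23), with an edgeR adjusted p of 0.0815 with the block. It was 0.28 without HCT-FU-c replicate 2, and with the block the adjusted p of miR-30c-5p was 0.0405 under total counts and 0.0492 with at least 10 counts in every library. miR-30e-5p stood at 6230 ± 1475 and 6766 ± 2154 CPM. For miR-30d-5p the log2 fold change was -0.29 (SE 0.37), and it turned to 0.044 without HCT116 replicate 3, to -0.067 without HCT-FU-c replicate 2, to -0.49 without HCT116 replicate 2 and to -0.67 without HCT-FU-c replicate 3.

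The paralogous miR-23/27/24 polycistrons had 3 of 10 tested members higher and 7 lower, with a median of -0.13, and 5 were higher under total counts. With the block miR-27a-5p fell. miR-23b-3p had means of 659 ± 56.9 and 893 ± 132 CPM, with all HCT-FU-c libraries above all HCT116 libraries and a log2 fold change of 0.44 that did not pass (edgeR adjusted p 0.148 with the block) and was 0.29 without HCT-FU-c replicate 3. miR-24-3p stood at 12295 ± 6860 and 11447 ± 7219 CPM and miR-23a-3p at 9225 ± 1207 and 8331 ± 1535 CPM. Of the 4 guide strands of the miR-181 family, 1 was higher and 3 lower, with a median of -0.41, and under RLE size factors none was higher. With the block miR-181b-5p fell. miR-181c-5p stood at 20.8 ± 6.25 and 20.9 ± 5.92 CPM and miR-181d-5p at 29.2 ± 14.8 and 21.9 ± 15.3 CPM.

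In the remaining lists no member was called in either edgeR fit, where all 367 gave 20 with the block and 0 without it, except miR-224-5p, which fell with the block as 1 of the 2 tested members of the list of GABRE miRNAs, the other being miR-452-5p, both lower under every scaling tried, with a median of -1.12. The X chromosome pair with miR-221-3p and miR-222-3p had 3 of 4 higher with a median of 0.11. The polycistron of miR-183, miR-96 and miR-182 had 2 of 5 higher with a median of -0.09, 4 under total counts and 1 under RLE size factors. The miRNAs of the HOX gene clusters had 6 of 7 higher with a median of 0.11, and 7 under total counts. The list of miR-99, miR-100 and miR-125 had 4 of 9 higher with a median of -0.04, 6 under total counts and 3 under RLE size factors, and its miR-125a-5p had means of 1425 ± 525 and 1919 ± 457 CPM and a log2 fold change of 0.43, with an adjusted p of 0.154 with the block. miR-125a-5p was at 0.21 without HCT116 replicate 1, at 0.71 without HCT116 replicate 2 and at 0.29 without HCT-FU-c replicate 1, and with the block its adjusted p was 0.0485 without HCT-FU-c replicate 2. The cluster of miR-500, miR-532 and miR-660 on the X chromosome had 4 of 9 higher with a median of -0.00016, and 7 under total counts. The seed family of miR-130, miR-301 and miR-454 had 2 of 5 higher with a median of -0.07, 3 under total counts and 1 under RLE size factors. The list of miR-148, miR-152 and miR-26 had 1 of 5 higher with a median of -0.03, and 4 under total counts. Its miR-148a-3p, at 4242 ± 523 and 3108 ± 157 CPM, was lower in every HCT-FU-c library, with a log2 fold change of -0.45 (SE 0.20) and an edgeR adjusted p of 0.0901 with the block, which became 0.0249 without HCT-FU-c replicate 3 and 0.0462 in DESeq2.

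**Figure D4:**
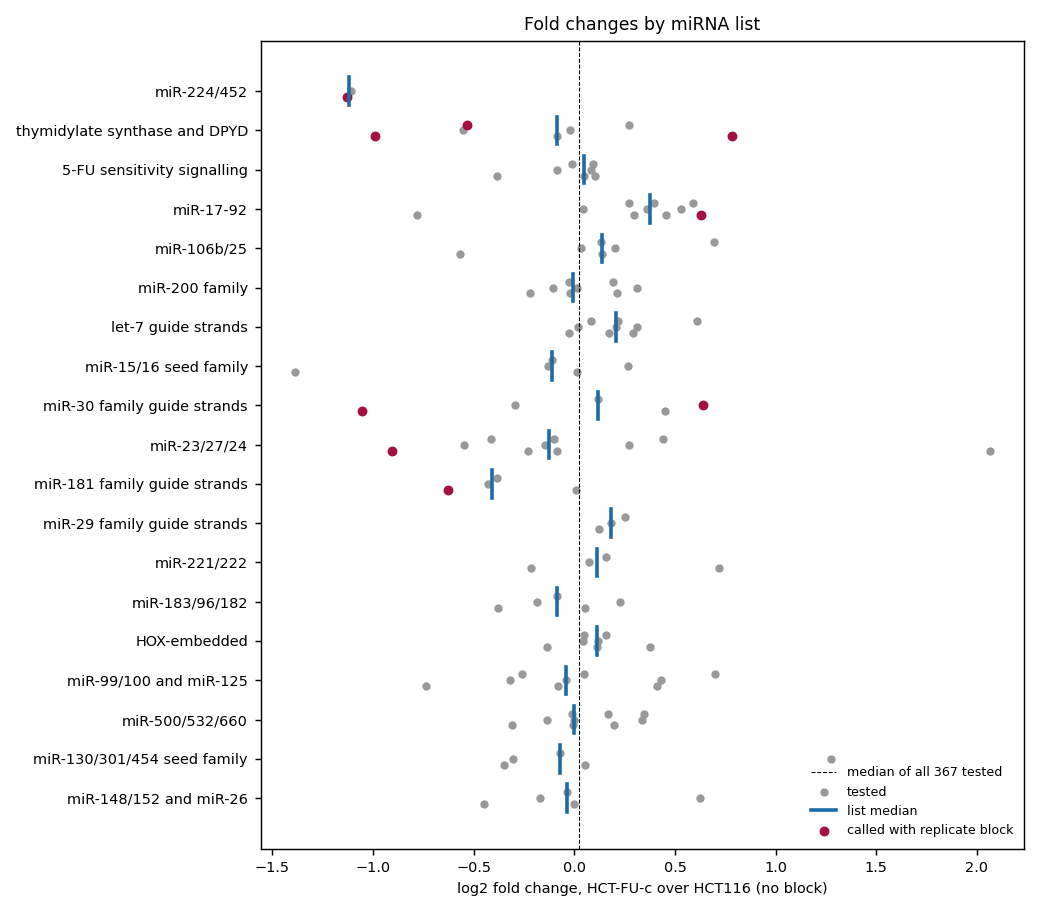
Each point is the log2 fold change of HCT-FU-c over HCT116, without a block, of a tested member of the list named at the left, red where the replicate block called it, with a blue bar at the list's median and a dashed line at the median of all 367 tested. The list medians run from -1.12 for miR-224 and miR-452 to 0.38 for miR-17-92, and under total counts the median of all tested moves to 0.19, so lists near the dashed line change sign with the scaling.

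The arms of a hairpin were compared by the sign of their fold change and by their calls. For the 83 hairpins with both arms tested, 52 had both arms on the same side of 0, and Pearson's r across these hairpins, which are not independent replicates, was 0.277. With the block, no hairpin had both arms called, and in 6 the called arm was the more abundant over the 6 libraries, namely miR-20a-5p, miR-30a-5p, miR-181b-5p, miR-301a-5p, miR-335-3p and miR-425-5p. In 3 it was the less abundant, namely miR-21-3p, miR-27a-5p and miR-181a-3p. Of these hairpins only miR-301a had its arms on opposite sides of 0, so a missing call is not a difference between arms. miR-30a-3p and miR-181b-3p, at 40.6 and 10.8 CPM over the 6 libraries, fell without a call. The log2 fold change of miR-181b-3p was lower than that of miR-181b-5p. This rank pools both lines. In HCT116 alone, the mean CPM of miR-301a-5p was below that of miR-301a-3p, and that of miR-335-3p below that of miR-335-5p.

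Hairpins within 10 kb of each other were taken as clusters, and the clusters named here were chosen after their values were seen. In MIR181A1 and MIR181B1 all 4 tested miRNAs were lower under every scaling tried, with a median of -0.75, and with the block miR-181b-5p and miR-181a-3p fell. Of these, miR-181a-5p and miR-181b-5p are also encoded by MIR181A2 and MIR181B2 on chromosome 9, so their reads can come from either place. In MIR23A, MIR27A and MIR24-2 all 5 were lower with a median of -0.15, although 2 were higher under total counts. Among them, miR-24-3p is also encoded by MIR24-1, in the cluster of MIR23B and MIR27B. In MIR424, MIR503, MIR542 and MIR450 on the X chromosome 6 of 6 were higher under every scaling tried, with a median of 0.22, and none was called with the block. The large imprinted cluster of chromosome 14 that starts at MIR379 had 8 of 17 higher and 9 lower with a median of -0.12, and 9 higher under total counts and 7 under RLE size factors. Chromosomes with at least 5 tested miRNAs were compared, leaving out miRNAs with hairpins on different chromosomes. The lowest medians were -0.39 for the 11 of chromosome 15 and -0.35 for the 6 of chromosome 6. The highest was 0.30 for the 11 of chromosome 13.

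HCT-FU-c and HCT-Oxa-c were compared in the same models, and a difference between them can come from either subline. Without a block 16 of 367 miRNAs differed (4.36%), and with it 97 (26.4%). Among the 41 miRNAs with a fold change given here, 8 differed without the block and 29 with it. Many of the 41 were chosen by how the same HCT-FU-c libraries differed from HCT116, so these counts depend in part on that choice. HCT-Oxa-c was at 41.0 ± 3.90 CPM for miR-301a-5p, 203 ± 41.7 CPM for miR-224-5p, 111 ± 31.5 CPM for miR-218-5p and 3694 ± 635 CPM for miR-203a-3p. HCT-FU-c was above it for miR-301a-5p and below it for the other 3. Both sublines are compared with the same HCT116 libraries.

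Markers of other cell types were looked at as summed counts in HCT116 replicates 1, 2 and 3 and then in HCT-FU-c. Epithelial markers (7 of 8 tested, led by miR-200c-3p) gave 38352, 34089 and 14614 and then 31102, 47612 and 16908 counts, the highest sum of the marker lists in each of the 6 libraries. Blood cell markers (1 of 6 tested) gave 6, 13 and 95 and then 15, 15 and 76 counts. In the replicate 3 libraries most came from miR-451a of red blood cells, which had 2, 0 and 86 and then 0, 0 and 70 counts. A count of 0 allows up to 3 counts, which is 2.14 CPM in HCT116 replicate 2 and 2.27 and 1.58 CPM in HCT-FU-c replicates 1 and 2, for counting error only, since PCR reads are not independent molecules. The liver marker miR-122-5p gave 2, 0 and 45 and then 0, 0 and 20 counts. So the blood and liver markers were high in replicate 3 of both lines and near 0 in the others, and their part in the results was not tested.

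Stromal markers (3 of 5 tested), led by miR-143-3p, gave 494, 519 and 514 and then 278, 471 and 390 counts, while miR-214-3p had 1 count in all 6 libraries together. Endothelial markers, led by miR-126-3p, gave 1606, 1465 and 509 and then 1358, 2040 and 535 counts. Neural markers (2 of 3 tested), led by miR-9-5p, gave 6531, 6137 and 3762 and then 5857, 7299 and 4343 counts, while the neuron-defining miR-124-3p had 0, 0 and 0 and then 2, 1 and 0. Striated muscle markers (1 of 4 tested), led by miR-499a-5p, gave 15, 24 and 13 and then 32, 40 and 15 counts. Of the 5 pluripotency markers only miR-302b-3p is in the table, with 0, 3 and 1 and then 0, 0 and 1 counts.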

How the data were processed

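The study's authors made small RNA libraries from total RNA with the NEXTflex Small RNA-Seq v3 kit and sequenced them on an Illumina MiSeq. The authors deposited raw read counts per mature miRNA, 1198 in all, for 9 libraries. Their processing notes name CASAVA 1.8, Bowtie 1.1.2, DESeq2 and GRCh38.p7, while the counting tool and the use of strand are not given in the sources used here. The 9 deposited normalized columns were not used.

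Counts were tested with edgeR 4.0.16 (limma 3.58.1, R 4.3.3), using the quasi-likelihood F test, TMM scaling, the line as factor and all 9 libraries. Of all miRNAs 367 passed filterByExpr (minimum count 10, minimum total 15). The prior count for fold changes was 0.125, and the Benjamini-Hochberg adjusted p was called under 0.05. The procedure was tested on simulated data. Replicate numbers come from the labels, which give no batch, and they were used as a block in an alternative because every correlation between same-number libraries exceeded 0.1. The correlations set replicate 3 apart and do not separate replicates 1 and 2. Chi-square per degree of freedom between replicates of a line ran from 50.3 to 406.

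Other alternatives were DESeq2 1.42.0, scaling by total counts, by RLE or by TMM after removing miR-21-5p, no filter, a filter of at least 10 counts in each library, a fit of the 6 libraries alone, and leaving out each library or replicate number. The block fits that leave out each of the 6 libraries were chosen after seeing the data. Fold changes are given for miRNAs called with the block, those with an unadjusted p under 0.05 without it, and part of the 10 most abundant and of the listed miRNAs. The comparison, the miRNA lists and the markers were chosen with earlier results of these data known, and the lists tied to 5-fluorouracil come from literature cited in the paper's introduction and were not picked on these libraries. Of the miRNAs that introduction ties to PI3K/AKT or Wnt signalling, miR-224 and miR-200c were not put in the signalling list but in other lists, let-7 was entered as let-7a-5p and miR-320 as miR-320a-3p. Hairpin positions and host genes are from GENCODE 29 (GRCh38) and sequences from RefSeq (GRCh38.p14). Summaries and plots used Python 3.11.15, pandas 2.3.3 and matplotlib 3.10.9.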

Additional observations from a re-analysis of the deposited data

Results flagged for a closer look

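For 8 of the miRNAs named above, HCT-FU-c and HCT-Oxa-c differed from each other in the edgeR fit without a block, so their differences from HCT116 are not alike. Both are compared with the same HCT116 libraries. The log2 difference of HCT-FU-c minus HCT-Oxa-c was 4.23 for miR-30a-5p (adjusted p 0.00443) and 2.00 for miR-301a-5p (0.00443). It was -1.98 for miR-23b-3p (0.00454), -1.84 for miR-27b-3p (0.00443), -1.80 for miR-218-5p (0.0114), -1.36 for miR-224-5p (0.0201), -1.29 for miR-203a-3p (0.0343) and -0.89 for miR-148a-3p (0.038). Such a difference can come from either subline. Against HCT116, the log2 fold change of HCT-FU-c was 0.44 for miR-23b-3p and 0.27 for miR-27b-3p, neither of them called. For miR-30a-5p it was -1.05, and HCT-Oxa-c was lower still.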

How the results depend on the processing

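The edgeR fit without a block called 0 miRNAs, with 15 at an unadjusted p under 0.05. It also called 0 with total counts, RLE size factors, TMM after removing miR-21-5p and the 6 libraries alone, 1 without a filter, 1 with at least 10 counts in every library, and 4 with DESeq2. Leaving out libraries or replicate numbers gave 0 to 13, the highest without replicate 3. With the replicate block 20 were called, 13 with the 6 libraries alone, 23 with DESeq2, 18 with RLE size factors, 10 with total counts, 16 with TMM after removing miR-21-5p, and 24 with at least 10 counts in every library. Leaving out libraries or numbers with the block gave 8 to 28, the highest without replicate 3, and the cause was not tested.

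The log2 fold change of miR-27a-3p turned positive with total counts, 0.10 without and 0.090 with the block, and ran from -0.20 to 0.042 over the fits without 1 library or number. That of miR-301a-3p had its lowest value, -1.43, without HCT-FU-c replicate 3 and its highest, 1.08, without HCT116 replicate 3. Without replicate 2 of HCT-FU-c it was 0.15, and the block gave 0.022 there and 0.043 without HCT116 replicate 3. That of miR-30d-5p ran from -0.67 to 0.044. The cause was not tested. The 20 miRNAs called with the block kept their sign in every alternative tried, though without a block and without HCT116 replicate 3 the log2 fold change was -0.0015 for miR-143-3p, -0.0083 for miR-181b-5p and -0.10 for miR-7974.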
